A study of Mus musculus with 4 samples.

Results

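Germline-like rearrangements are T-cell receptor β (TRB) junctions in which the V segment runs straight into the D segment and the D segment straight into the J segment, with no added base between them. They were taken as the in-frame entries with an assigned D segment and an inserted length of 0 at both junctions. There were 26919 of them among 181781 in-frame entries with a D segment over 4 libraries, which is 14.8%. They comprised 22617 distinct nucleotide CDR3s (the third complementarity-determining region, with its V and J segment) and 19627 distinct amino acid CDR3s. The choice used the inserted lengths alone and no level. The remaining 154862 in-frame entries with a D segment, all with at least 1 inserted base, were the comparison.

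Total RNA for the libraries came from DAPI-negative CD45+CD3+CD8+ T cells that were sorted out of livers with MC38 metastases. MC38 is a colon adenocarcinoma line of the mouse, which the labels call melanoma. Mice were wild-type or Vsig4-/-, all received MC38 cells, and cells were taken on day 14. Vsig4 is a receptor gene of Kupffer cells, the macrophages of the liver, and its product binds complement. There were 2 libraries per genotype, numbered by the labels, and 4 values in a row stand for wild-type 1, wild-type 2, Vsig4-deficient 1 and Vsig4-deficient 2, in this order. The sources used here do not give strain, age or sex, or whether each library came from its own animal, so p-values measure the spread between these samples, which may be technical. The tables list TRB entries only, so neither the loss of Vsig4 nor the CD8+ identity could be checked in them. An entry is 1 row of a table, a nucleotide CDR3 with its V, D and J assignment and a clone count, and the same CDR3 in several libraries is an entry in each. Totals ran from 901567 to 1269480 counts and from 52227 to 81858 entries per library, and the V, D and J assignments are those of the authors' tables.

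A TRB gene is assembled in the thymus in the order D to J, then V to DJ. The RAG recombinase opens each segment at its end as a hairpin. Nicking a hairpin off its tip leaves a few self-complementary P bases, nucleases can remove bases from the end, and terminal deoxynucleotidyl transferase (TdT) adds N bases without a template. TdT is scarce in the fetal thymus, so early T cells carry many junctions without N bases, and TRB junctions of adult mice carry a moderate number. P bases were counted as part of their segment in these tables, so a germline-like junction may hold P bases but no base counted as inserted. Such a sequence can be made again in any animal from the genome by trimming and P bases alone, which is why these junctions are studied among public receptors, those found in many individuals.

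Mouse TRB segments lie on chromosome 6, and positions are those of RefSeq on GRCm38.p6, the assembly family of the mm10 build in the submitters' processing notes. Most V segments lie upstream of 2 D-J clusters. TRBD1 (chr6:41533201-41533212) precedes the TRBJ1 segments, TRBD2 (chr6:41542163-41542176) precedes the TRBJ2 segments, and TRBV31 (chr6:41557693-41558371) lies beyond both clusters and joins by inversion. All 39 segments taken from the deposited alignments (25 V, 2 D and 12 J) matched a RefSeq symbol. The end of TRBV28, which had 1 alignment, was not fully read. The D segments are shown because every member is built around a stretch of one of them. They are 12 and 14 bases long and read, 5′ to 3′ on the coding strand:
TRBD1: GGGACAGGGGGC
TRBD2: GGGACTGGGGGGGC
The largest germline-like entry of each library shows what the junctions look like. The CDR3 runs from the conserved cysteine codon of V to the conserved phenylalanine codon of J, and the capitals mark the D stretch.
wild-type 1, TRBV13-3 with TRBJ2-5: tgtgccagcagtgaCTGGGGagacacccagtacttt
wild-type 2, TRBV26 with TRBJ2-1: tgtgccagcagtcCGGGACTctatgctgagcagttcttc
Vsig4-deficient 1, TRBV13-3 with TRBJ2-4: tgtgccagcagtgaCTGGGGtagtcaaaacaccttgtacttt
Vsig4-deficient 2, TRBV12-2 with TRBJ2-4: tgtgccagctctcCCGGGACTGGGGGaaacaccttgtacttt
The first and the third have the same V segment, trimmed by 2 bases, and the same 6-base TRBD2 stretch, and differ in the J segment. The second and the fourth open their D stretch with P bases.

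Germline-like junctions took up a like share of every library. They were 15.2% of in-frame entries with a D segment in wild-type 1 (5497 of 36251) and 14.6% in wild-type 2 (8207 of 56185). In the Vsig4-deficient libraries they were 14.7% (5270 of 35849) and 14.9% (7945 of 53496). The 95% Wilson intervals were 14.8% to 15.5%, 14.3% to 14.9%, 14.3% to 15.1% and 14.6% to 15.2%, and like all such intervals here they cover counting error only. Entries with 1 inserted base, just outside the definition, made up 17.3% of the 181781, those with 2 were the most frequent at 19.2%, and those with 8 or more made up 3.17%. The in-frame median was 2 inserted bases in each library. At the V-D junction 37.7% to 38.6% of entries had no inserted base, and at the D-J junction 38.2% to 38.4%. The product of the shares at both junctions was 14.8%, 14.4%, 14.5% and 14.6% in the same order, a little below the observed share in each library.

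**Figure D1:**
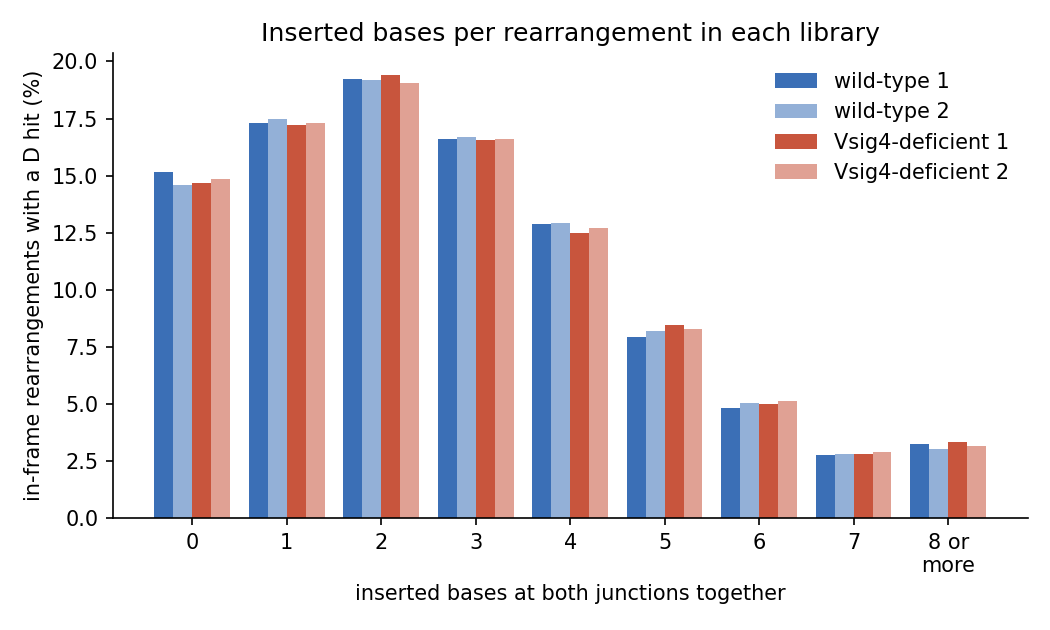
Share of in-frame entries with a D segment (percent, vertical axis) by the number of inserted bases at both junctions together (horizontal axis, the last class 8 or more), one bar per library (blue wild-type, red Vsig4-deficient, the paler bar replicate 2). The 4 libraries run close together in every class, with 14.6% to 15.2% at 0 inserted bases.

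Out-of-frame entries encode no receptor and were measured beside the in-frame ones as rearrangements not chosen for their protein. They had a frame break and no stop codon in the listed amino acid CDR3. Entries with both were left out, so the class does not hold all out-of-frame rearrangements. Their germline-like share was 12.02%, 13.6%, 12.4% and 14.01%, from 3420 to 5471 entries each. The in-frame share was higher in 4 of 4 libraries, by 1.81 percentage points on average (p = 0.125, two-sided exact permutation test that swaps the classes within libraries, the smallest p that 4 libraries allow). The median of inserted bases was 3 out of frame. In-frame entries with a stop codon were few, 163 to 296 per library, and 10.4% to 15.5% of them were germline-like.

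The share of entries did not separate the genotypes. The Vsig4-deficient mean was 0.109 percentage points below the wild-type mean, and the groups overlapped (p = 1, exact permutation test of 2 against 2 libraries, whose smallest possible p is 0.333). Weighted by clone count, germline-like entries held 19.1% and 16.9% of the counts of in-frame entries with a D segment in the wild-type libraries. They held 15.01% and 15.9% in the Vsig4-deficient libraries. Both Vsig4-deficient values were below both wild-type values, by 2.55 percentage points on average (p = 0.333, exact permutation test). The part of these counts that a single entry held differed between libraries. The largest germline-like entry carried 11.8% and 2.41% of all germline-like counts in wild-type 1 and 2, and 28.4% and 15.7% in Vsig4-deficient 1 and 2. Without the largest germline-like entry of each library the shares were 17.2% and 16.6% against 11.2% and 13.8%, a difference of -4.42 points. The largest other entry carried 2.11% and 3.45% of the counts of other entries in wild-type 1 and 2. In Vsig4-deficient 1 and 2 it carried 8.78% and 23.8%, the latter with 203614 counts. Germline-like entries held 162257 of 1018658 counts in Vsig4-deficient 2. In wild-type 2 they held 108388 of 640062, where the largest other entry had 18318 counts. With the largest other entry of each library left out, the share in Vsig4-deficient 2 was above that in wild-type 2. The separation of the genotypes by counts thus did not hold without these other entries. With 1 inserted base allowed as well, the difference was 4.48 points in the other direction, since Vsig4-deficient 2 then stood at 48.9% and the other 3 libraries at 32.0% to 37.7%.

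**Figure D2:**
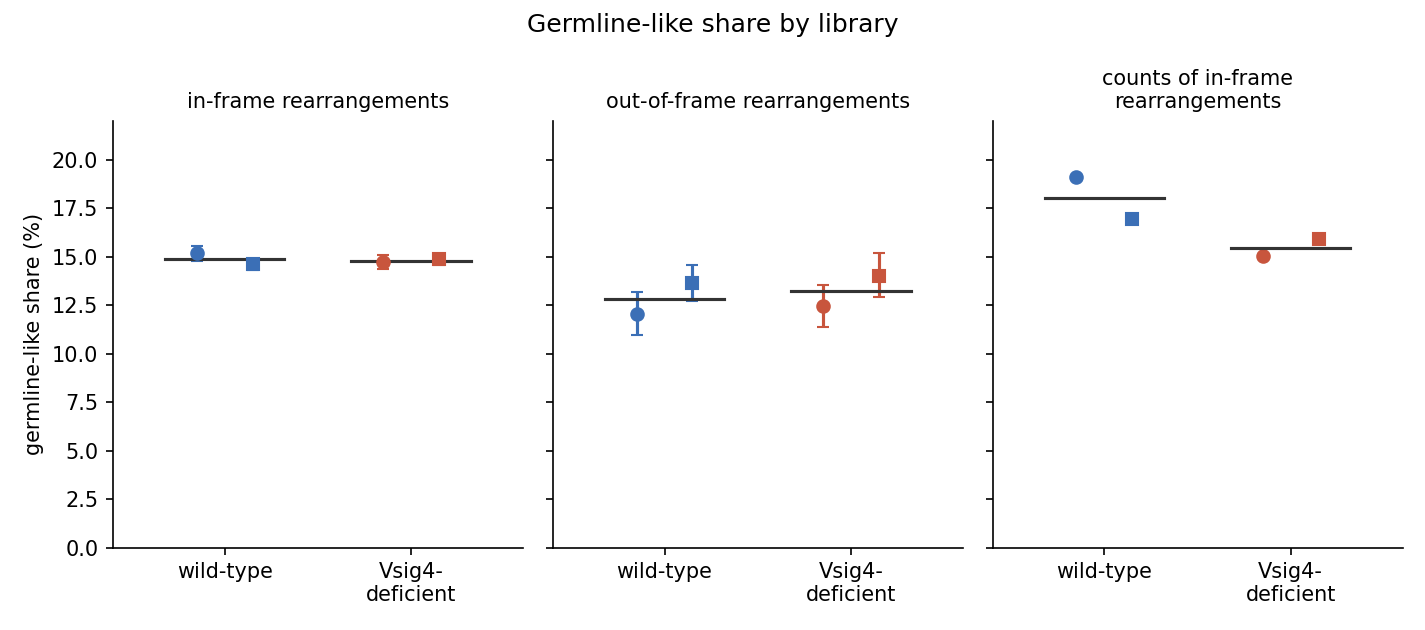
Germline-like share (percent, vertical axis from 0) of in-frame entries (left), out-of-frame entries (middle) and the counts of in-frame entries (right), by genotype (horizontal axis), with circles for replicate 1, squares for replicate 2, bars for 95% Wilson intervals of entries and a line at the mean of the 2 libraries. Entry shares of the genotypes overlap, and both Vsig4-deficient count shares, 15.01% and 15.9%, lie below both wild-type ones, 16.9% and 19.1%.

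Among in-frame entries, V segments differed in how often they were without inserted bases. Their use was compared between germline-like and other entries with edgeR's quasi-likelihood test on the number of entries per segment, with the library as a block and Benjamini-Hochberg adjustment. Of 23 V segments with at least 10 entries, 13 passed an adjusted p of 0.05 (56.5%), 8 of them higher (34.8%) and 5 lower (21.7%) among germline-like entries. Of those 13, TRBV4, TRBV31, TRBV19, TRBV1 and TRBV12-2 also passed with each library left out in turn. The other 8 lost the call without at least 1 library, and so did 4 of the 5 J segments called. When clone counts were summed in place of entries, edgeR called 0 V and 0 J segments, with 1 V segment and 0 J segments at an unadjusted p under 0.05.

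TRBV4 (chr6:41059443-41059886) was the segment used least by germline-like entries relative to the others, among the V segments called. It made up 3.22%, 3.23%, 2.94% and 2.45% of germline-like entries library by library. It made up 5.00%, 5.30%, 4.42% and 4.08% of other entries, so that the classes did not overlap. The log2 ratio was -0.68 ± 0.06 (SE, adjusted p = 1.27e-16, edgeR quasi-likelihood test, lower in 4 of 4 libraries). The end of TRBV4 is shown with its stop codon in capitals, read in the frame of the CDR3, because an in-frame receptor can use this V only after the codon is broken:
TRBV4: tgtgccagcagcTAAga
Loss of 3 bases removes the last base of the codon, but an A or G joined next makes a stop codon again. The joined codons were not checked. No other V segment whose end was fully read held a stop codon there. Germline-like TRBV4 entries had lost 4.43 bases of V on average, more than those of any other V segment. Of all in-frame TRBV4 entries with a D segment, 9.80% were germline-like (792 of 8081, 95% Wilson interval 9.17% to 10.5%). The share was 17.3% (56 of 323, 13.6% to 21.8%) where the CDR3 held a stop codon and 9.45% (71 of 751, 7.56% to 11.8%) out of frame. Out-of-frame entries with a stop codon were left out. That class was thus filtered on this codon like the in-frame one, and its share cannot stand for TRBV4 without the filter.

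TRBV31, the inverted V segment, was next. It made up 2.33% to 2.57% of germline-like entries and 3.40% to 3.57% of others, a log2 ratio of -0.52 ± 0.06 (SE, adjusted p = 1.23e-10, edgeR, lower in 4 of 4 libraries). Without regard to the D-J side, 26.4% of its entries had no base inserted between V and D, the lowest share among V segments with at least 100 entries. Of its out-of-frame entries 10.3% (225 of 2194) were germline-like, close to the 10.8% in frame. TRBV19 (chr6:41178589-41179048) made up 4.15%, 3.31%, 3.66% and 2.79% of germline-like entries against 4.70%, 4.39%, 4.44% and 3.14% of others. Its log2 ratio was -0.27 ± 0.06 (SE, adjusted p = 6.46e-05, edgeR). Its germline-like share was 12.6% in frame and 13.7% out of frame (85 of 622), so it was not lower out of frame.

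On the other side stood TRBV1 (chr6:40891296-40891885) and TRBV12-2 (chr6:41118864-41119364). TRBV1 made up 7.53%, 8.04%, 8.10% and 8.97% of germline-like entries and 6.18%, 6.13%, 6.13% and 7.58% of others, a log2 ratio of 0.33 ± 0.04 (SE, adjusted p = 3.98e-10, edgeR, higher in 4 of 4 libraries). With clone counts summed in place of entries the ratio was -0.17 and did not pass. Its germline-like share was 17.9% in frame and 16.3% out of frame. TRBV12-2 made up 9.48%, 7.88%, 9.26% and 9.52% of germline-like entries and 7.40%, 7.33%, 8.37% and 7.72% of others, with a log2 ratio of 0.23 ± 0.04 (SE, adjusted p = 1.91e-06, edgeR, higher in 4 of 4). The TRBV12-2 germline-like share was 16.9% in frame but 12.9% out of frame (76 of 588), where that of TRBV12-1 was 13.2%. TRBV12-1, of the same family, did not pass, with a log2 ratio of -0.08 ± 0.04 (adjusted p = 0.0734, edgeR). Both end in the same 15 bases of CDR3:
TRBV12-1: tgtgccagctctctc
TRBV12-2: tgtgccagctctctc
No test compared these ratios with each other. Of the remaining calls, TRBV20, TRBV16, TRBV5, TRBV2, TRBV26 and TRBV29 were higher (log2 ratios 0.11 to 0.48) and TRBV14 and TRBV3 lower (-0.14 and -0.13), each depending on at least 1 library.

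The TRBV13 family, the Vβ8 group of mouse nomenclature, was the most used. TRBV13-2 led with 12.8% to 14.5% of germline-like entries, and the 3 members together made up 30.4% to 34.1% of germline-like and 29.3% to 35.1% of other entries. None of the 3 passed the test, with log2 ratios of 0.07 for TRBV13-2, -0.05 for TRBV13-1 and -0.02 for TRBV13-3 (adjusted p 0.0765, 0.330 and 0.599, edgeR). The 5 most used V segments of germline-like entries were TRBV13-2, TRBV13-3, TRBV12-2, TRBV3 and TRBV13-1. Across the 13 V segments with at least 500 out-of-frame entries, the germline-like share in frame and out of frame had Pearson's r of 0.73 and Spearman's rho of 0.54. This is a description over segments that share the same libraries. Both classes leave out entries with a stop codon, which bears on TRBV4 in particular. TRBV4 and TRBV31 had the lowest shares in both, and the range was 9.80% to 17.9% in frame and 9.45% to 16.3% out of frame.

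J segments differed as well. Of 12 tested, 5 passed (41.7%), 4 higher (33.3%) and 1 lower (8.33%) in germline-like entries. TRBJ2-7, the most used J segment of germline-like entries (chr6:41543810-41543856), was the one lower. It made up 18.5%, 17.6%, 17.5% and 17.2% of germline-like entries and 21.1%, 21.0%, 20.7% and 19.7% of others, so that the classes did not overlap. Its log2 ratio was -0.22 ± 0.02 (SE, adjusted p = 6.51e-10, edgeR, lower in 4 of 4 libraries), and it was the sole J segment called with each library left out. Of its entries 33.3% had no base between D and J, against 37.6% to 42.7% for the other J segments. The J segments called higher were TRBJ1-3 (0.34 ± 0.07), TRBJ1-6 (0.26 ± 0.08), TRBJ1-2 (0.16 ± 0.05) and TRBJ2-4 (0.10 ± 0.03, all log2 ratio ± SE). With entries of 1 count left out, TRBJ2-7 was the only J segment still called. The TRBJ1 cluster as a whole made up 29.9% to 30.5% of germline-like and 26.6% to 28.4% of other entries, higher in 4 of 4 libraries (p = 0.125, exact permutation test). Across the 11 J segments with at least 500 out-of-frame entries, the shares in and out of frame had Pearson's r of -0.22 and Spearman's rho of 0.01, again as a description.

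**Figure D3:**
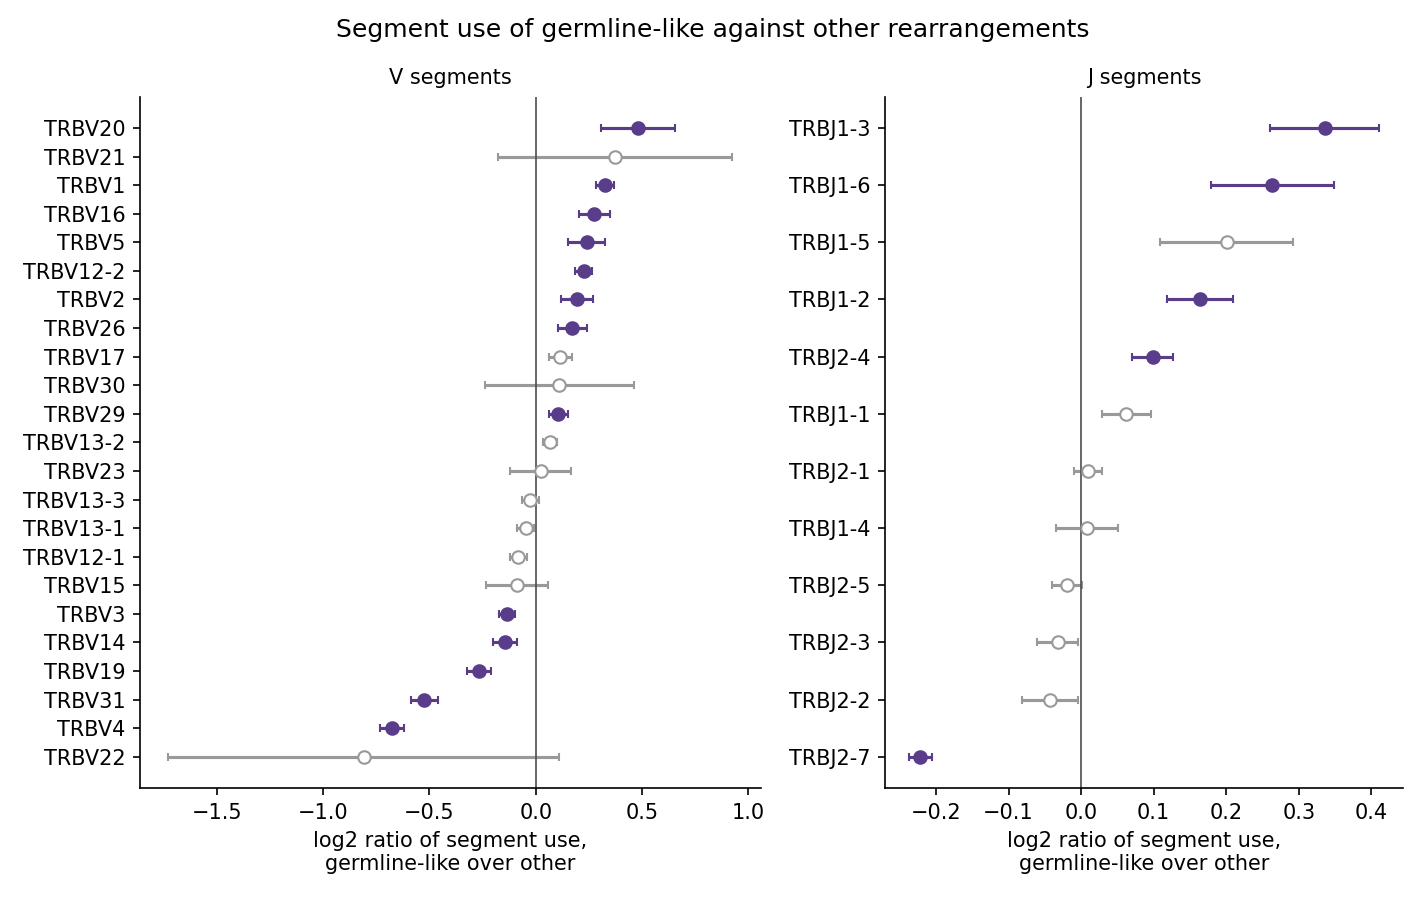
Log2 ratio of the use of each V (left) and J (right) segment in germline-like over other in-frame entries (horizontal axis, points with bars of ± 1 SE from edgeR, 4 libraries), ordered by ratio. Filled points passed an adjusted p of 0.05, with TRBV4 at -0.68 and TRBJ2-7 at -0.22 lowest among the filled points of their panels.

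Genotype showed no called difference in segment use among germline-like entries. Of 22 V segments tested with edgeR's quasi-likelihood test between the genotypes, 0 were called (0%). At an unadjusted p under 0.05 there was 1, TRBV2 (log2 ratio Vsig4-deficient over wild-type -0.45), and DESeq2 called 0 as well. Of 12 J segments 0 were called (0%), with 1 at an unadjusted p under 0.05, TRBJ2-3 (log2 ratio -0.16, adjusted p = 0.0935, edgeR), and DESeq2 called 0.

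The D segment was TRBD1 in 56.3% to 57.9% of germline-like entries and 56.5% to 58.8% of others, higher in 1 of 4 libraries. About 1 in 10 D assignments was tied between both segments, 10.04% to 10.5% of germline-like entries. The D stretch, P bases included, measured 8.28 ± 0.04 bases in germline-like entries and 8.13 ± 0.03 in others (mean ± SD, n = 4 libraries, higher in 4 of 4). The whole D segment was kept by 2.01% of germline-like entries and 1.98% of others. A D segment can be read in any of 3 frames, numbered here by the D base that opens a codon. Frame 3 of TRBD2, which holds a tryptophan codon, was read by 39.04%, 38.1%, 37.9% and 37.2% of germline-like TRBD2 entries. Among other entries it was 35.2%, 34.2%, 34.2% and 33.8%, 3.69 percentage points lower on average (4 of 4, p = 0.125, exact permutation test). Frame 1, which holds a threonine codon, was read by 30.2% to 30.9% against 33.3% to 34.6%, and frame 2 did not keep 1 direction over the libraries. In TRBD1 frame 2, with its glutamine codon, was higher by 2.09 points and frame 1 lower by 1.40 points, each in 4 of 4 libraries.

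Segments of germline-like entries were trimmed less. V lost 2.26 ± 0.03 bases against 2.81 ± 0.02 in others, and J lost 2.63 ± 0.07 against 3.10 ± 0.01 (mean ± SD, n = 4). All bases trimmed came to 10.1 ± 0.05 against 11.2 ± 0.02, lower in 4 of 4 libraries (p = 0.125, exact permutation test). An untrimmed V was present in 28.4% ± 0.5 of germline-like and 20.0% ± 0.3 of other entries, an untrimmed J in 26.1% ± 0.9 and 22.2% ± 0.3. P bases were present in 55.9% ± 0.2 of germline-like entries and 44.6% ± 0.3 of others. They were more frequent at the V end (16.6% against 9.99%), at the D start (24.1% against 18.5%) and at the J start (18.7% against 12.4%), and less frequent at the D end (7.15% against 9.59%), each in 4 of 4 libraries. An N base that happens to equal the next germline base is read as germline in such tables, so an untrimmed or P end and an inserted base are not measured independently. At 35.5% to 36.9% of germline-like junctions at least 1 boundary base could have come from either neighbour, 25.2% to 26.4% at the V-D boundary and 13.4% to 14.4% at the D-J boundary. Out of frame this was 37.0% to 39.8%.

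The germline-like CDR3 was shorter than that of other entries, by less than the bases that the others had inserted. It measured 41.2 ± 0.03 nucleotides against 42.9 ± 0.03 (mean ± SD, n = 4), 1.70 shorter, in 4 of 4 libraries (p = 0.125, exact permutation test). With inserted bases subtracted, others measured 39.7 ± 0.03 nucleotides, so the germline part of a germline-like CDR3 was 1.54 longer. Both classes had a median of 42 nucleotides, or 14 amino acids. Germline-like CDR3s ranged from 15 to 57 nucleotides and others from 18 to 168. Of the in-frame entries of 30 nucleotides 34.3% were germline-like, of those of 42 nucleotides 15.2%, and of those of 51 nucleotides 5.10%.

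Germline-like CDR3s recurred in other libraries 1.93 times as often as the rest. An entry was called shared when its amino acid CDR3 with the same V and J segment was listed in at least 1 of the other 3 libraries. Of germline-like entries 53.5% and 48.8% were shared in wild-type 1 and 2, and 54.8% and 50.6% in their Vsig4-deficient counterparts. Of other entries 27.7%, 23.8%, 29.1% and 27.0% were shared. The classes did not overlap, and the difference was 25.01 ± 1.01 percentage points (mean ± SD, n = 4 libraries, 4 of 4, p = 0.125, exact permutation test). A shared CDR3 counts in each library that lists it, so the 4 values are not fully independent. For identical nucleotides the shares were 30.9%, 26.3%, 32.96% and 28.9% against 16.2%, 12.5%, 17.7% and 16.3%. Listing in all 4 libraries was met by 10.6% ± 1.5 of germline-like and 2.71% ± 0.41 of other entries.

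The share was lower in each class with more inserted bases. It was 51.9% at 0 inserted bases, 39.2% at 1, 30.9% at 2, 25.4% at 3, 21.7% at 4 and 12.8% at 8 or more (means of 4 libraries). The step from 0 to 1 was the largest, and the class of 1 inserted base lies just outside the definition. For identical nucleotides the decline was shorter, from 29.7% at 0 to 16.002% at 2, and 11.9% to 14.8% in the classes of 3 or more. At 8 or more it was 11.9%, against 12.8% for amino acids, so nearly all sharing there was of the same nucleotide sequence. The source of that sharing was not tested.

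**Figure D4:**
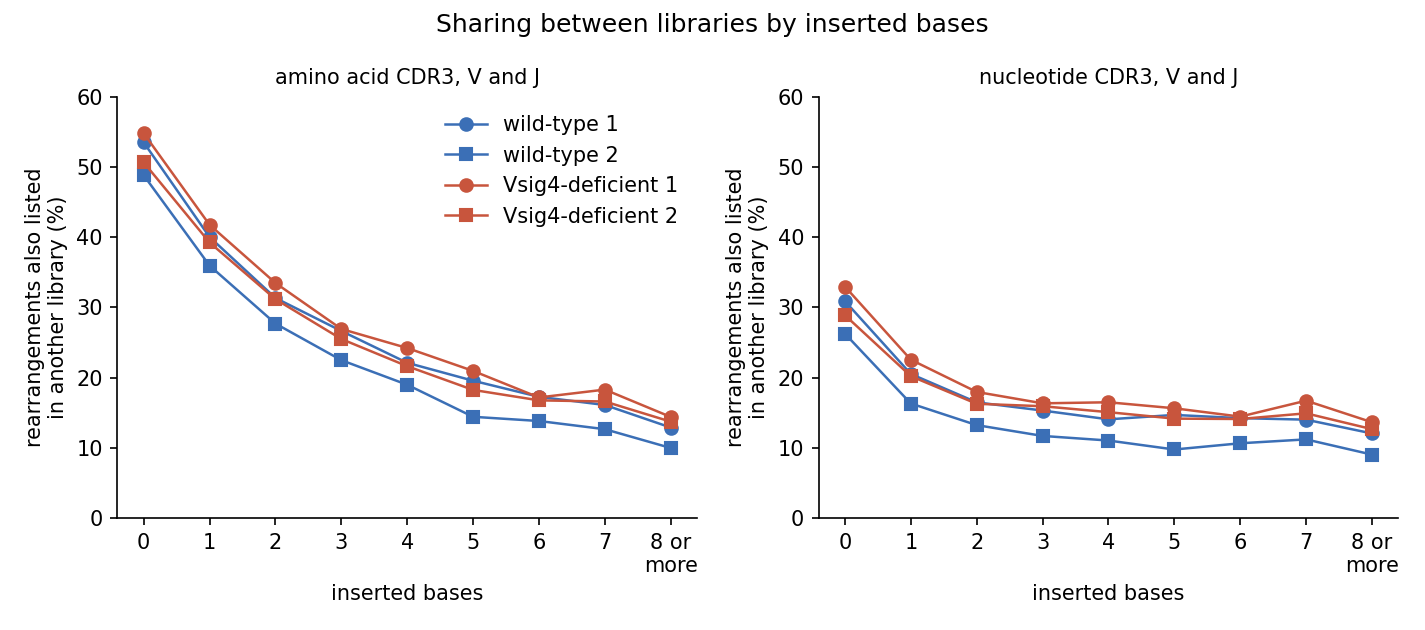
Share of in-frame entries also listed in another library (percent, vertical axis from 0) by inserted bases (horizontal axis, the last class 8 or more), for amino acid CDR3s (left) and nucleotide CDR3s (right), one line per library (blue wild-type, red Vsig4-deficient, circles replicate 1, squares replicate 2). At 0 inserted bases the 4 libraries stand at 48.8% to 54.8% on the left and 26.3% to 32.96% on the right.

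The difference was also present among entries of like length, segment use or clone count. At every CDR3 length from 30 to 51 nucleotides germline-like entries were shared more often in 4 of 4 libraries, with 57.3% ± 2.3 against 30.6% ± 2.0 at 42 nucleotides and 29.1% ± 5.2 against 15.9% ± 2.4 at 51 (mean ± SD, n = 4). With other entries weighted to the V segment, J segment and length of the germline-like ones, the difference was 24.2 points. Within classes of clone count it was 46.5% against 28.8% for entries of 1 count and 57.4% against 27.0% for 11 to 30 counts, higher in 4 of 4 libraries in each class up to 100 counts and in 3 of 4 above. With listings under 5% of a clonotype's share in another library left out, the difference was 26.1 points.

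**Figure D5:**
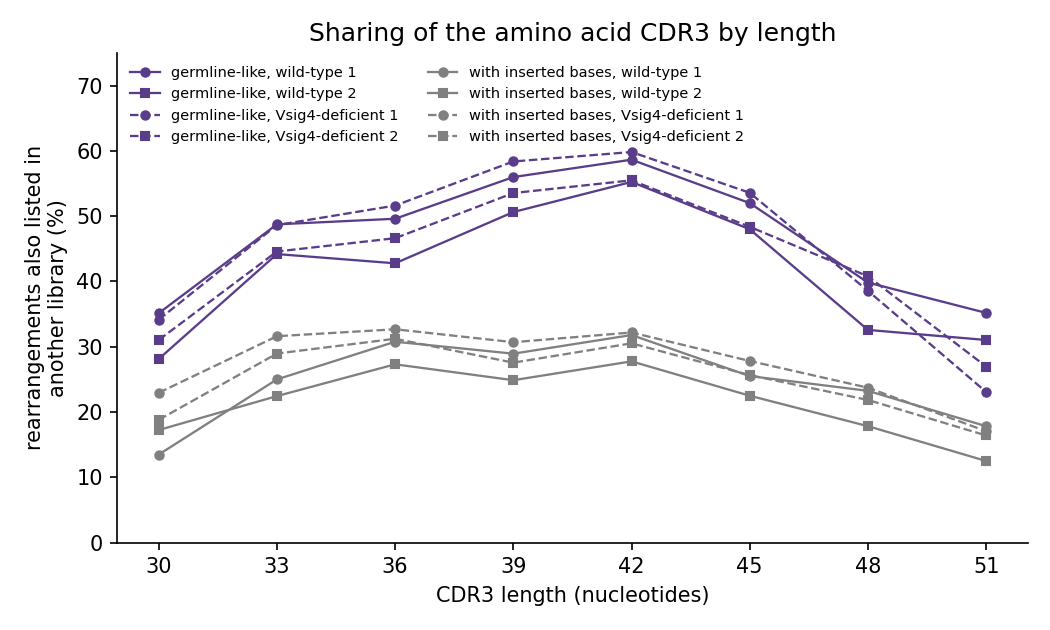
Share of in-frame entries whose amino acid CDR3, V and J were listed in another library (percent, vertical axis from 0) by CDR3 length in nucleotides (horizontal axis), for germline-like entries (purple) and those with inserted bases (grey), with solid lines for wild-type, dashed lines for Vsig4-deficient, circles for replicate 1 and squares for replicate 2. The purple lines lie above the grey line of the same library at each length from 30 to 51 nucleotides.

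Sharing went across genotypes as well as within them. Between libraries of different genotype 24.0% to 32.7% of germline-like entries and 8.30% to 13.1% of others were found again, a ratio of 2.42 to 2.91 per pair. Between libraries of the same genotype it was 26.6% to 38.1% and 12.8% to 20.9%, a ratio of 1.82 to 2.07. The number found again depends on the depth of the library searched, and no test compared the ratios. Of the 146008 distinct amino acid CDR3s that any in-frame entry with a D segment encoded, 13.4% had a germline-like entry. That share was 10.3% of those listed in 1 library, 24.99% in 2, 47.5% in 3 and 63.7% of the 1203 listed in all 4. Counted over entries, which does not favour CDR3s with many encodings, 10.3%, 19.8%, 32.2% and 40.6% were germline-like. There were 98 germline-like nucleotide CDR3s in all 4 libraries.

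A germline-like amino acid CDR3 more often had further nucleotide encodings in its own library. It had 1.2003, 1.29, 1.21 and 1.26 encoding sequences on average, against 1.06, 1.08, 1.06 and 1.07 for the CDR3s of other entries (difference 0.171, 4 of 4 libraries, p = 0.125, exact permutation test). Counting each CDR3 once per class favours the smaller class, since a CDR3 with many encodings needs a single germline-like one to enter it. Counted per entry, germline-like entries had 0.345 ± 0.063 further encodings and others 0.121 ± 0.019 (mean ± SD, n = 4), and 21.99% ± 2.7 against 8.70% ± 1.1 had any. The germline-like CDR3 with the highest number of encodings, added up library by library, had TRBV13-2 and TRBJ2-3, and 20 distinct nucleotide sequences encoded it: 8 were germline-like, 11 had 1 to 3 inserted bases, and 1 had no D segment assigned. The germline-like ones are shown because they reach the same protein from the genome by different trimming and P bases, with the D stretch in capitals:
encoding 1: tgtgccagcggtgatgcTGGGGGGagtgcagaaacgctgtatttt
encoding 2: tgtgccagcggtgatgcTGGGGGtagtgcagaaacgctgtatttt
encoding 3: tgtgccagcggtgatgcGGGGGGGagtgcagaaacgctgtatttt
encoding 4: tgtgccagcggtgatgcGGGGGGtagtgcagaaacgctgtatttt
encoding 5: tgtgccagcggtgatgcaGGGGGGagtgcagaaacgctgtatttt
encoding 6: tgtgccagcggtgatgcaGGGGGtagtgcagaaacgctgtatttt
encoding 7: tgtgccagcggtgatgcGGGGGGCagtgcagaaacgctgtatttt
encoding 8: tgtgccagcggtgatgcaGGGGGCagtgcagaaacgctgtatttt
All 8 keep V and J untrimmed and differ at 2 of 45 positions, 18 and 24 from the first base of the CDR3, both the last base of a codon. Encodings 1 and 2 were in all 4 libraries, with 30, 279, 8 and 51 and with 156, 196, 61 and 37 counts. The others were in 1 to 3 libraries. The summed share of the CDR3 was 0.0562% and 0.0869% of in-frame counts in the wild-type and 0.0171% and 0.0235% in the Vsig4-deficient libraries, a CDR3 chosen for its encodings and not for these values.

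Germline-like entries had slightly higher clone counts across the bulk of the repertoire, and among the very largest clones the libraries had no common direction. Their median count was 8, 7, 6 and 3, against 6, 5, 5 and 2 in others. The mean log2 count was 0.27 ± 0.05 higher (mean ± SD, n = 4, 4 of 4 libraries, p = 0.125, exact permutation test). Entries with 1 count made up 18.4%, 14.9%, 17.8% and 27.7% of germline-like entries and 22.2%, 18.3%, 21.5% and 34.0% of others. Entries above 0.01% of in-frame counts made up 3.02%, 0.755%, 1.35% and 1.498% against 1.88%, 0.371%, 0.968% and 0.885%, higher in 4 of 4. Above 0.1% there were 4, 1, 4 and 9 germline-like entries among 19, 15, 52 and 50, a higher share than of other entries in 2 of 4 libraries (p = 0.875, exact permutation test). The sources used here do not say whether a count is a read or a molecule.

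The largest germline-like clones were mostly large in 1 library. The TRBV13-3 and TRBJ2-5 entry shown for wild-type 1 had 14185 counts there, 1.62% of in-frame counts (95% Wilson interval 1.59% to 1.65%), then 189 in wild-type 2, 0 in Vsig4-deficient 1 and 57 in Vsig4-deficient 2. The TRBV13-3 and TRBJ2-4 entry of Vsig4-deficient 1 had 29895 counts (3.12%), then 712 in Vsig4-deficient 2, 9 in wild-type 1 and 0 in wild-type 2. The TRBV12-2 and TRBJ2-4 entry of Vsig4-deficient 2 had 25438 counts (2.07%), 41 in Vsig4-deficient 1, 1 in wild-type 2 and 0 in wild-type 1. The TRBV26 and TRBJ2-1 entry of wild-type 2 had 2610 counts (0.304%) and 27 in wild-type 1, and 0 in both Vsig4-deficient libraries. These 4 entries thus had their second highest count in the other library of the genotype in 4 of 4 cases. These second listings were small, at 0.022%, 0.058%, 0.0043% and 0.0031% of in-frame counts in the order given. Each fell under the limit of 5% of a clonotype's share in another library that was used for sharing. A further entry was among the 3 largest of both Vsig4-deficient libraries, and is shown for that reason:
TRBV17 with TRBJ2-2: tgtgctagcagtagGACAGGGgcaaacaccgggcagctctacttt
It had 1361 and 11155 counts there (0.142% and 0.908% of in-frame counts) and 0 in both wild-type libraries. The amino acid CDR3s of the TRBV13-3 entries were listed in all 4 libraries, and held 4 nucleotide encodings each over the libraries, 3 of them germline-like.

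Of the 33 properties set between germline-like and other entries, lengths, trimming, sharing, encodings, clone size and segments, 29 reached the smallest p of 0.125, which is 0.142 after Benjamini-Hochberg adjustment, so the design allows no p below 0.05. Whether the difference between the classes itself differed by genotype cannot be called with 2 against 2 libraries, whose smallest p is 0.333 also where the genotypes do not overlap. For sharing, the Vsig4-deficient mean of the difference minus the wild-type mean was -0.724 points (p = 0.667, exact permutation test).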

How the data were processed

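TRB clonotypes were measured in 4 libraries. The deposited tables give, per the file headers, a clone count and a clone fraction per clonotype, alignment scores, and the V, D and J boundaries in the CDR3. The submitters' processing notes name mm10. The sources used here name no assembling program or filters, nor whether counts are reads or molecules. The clone counts were used as deposited by the authors, the deposited clone fraction was not used, the deposited quality score of the CDR3 (its poorest base) lay between 25 and 37, and equal alignment scores marked tied V or D assignments.

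In-frame entries had an amino acid CDR3 without a frame break or stop. Out-of-frame entries had a frame break and no stop, and those with both were left out. The inserted length was the number of bases between V and D plus that between D and J. Germline ends were read from alignments without mismatch and set against RefSeq on GRCm38.p6. Entries without a D segment, 23.7% to 23.8% of the in-frame entries, were left out.

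Entries per segment were tested with edgeR 4.0.16 (quasi-likelihood, segments with at least 10 entries, Benjamini-Hochberg, adjusted p of 0.05, library as a block between classes) in R 4.3.3. DESeq2 1.42.0 was an alternative. Single values were compared by exact permutation in Python, and Wilson intervals were computed with SciPy 1.17.1. Scripts ran in Python 3.11.15 with pandas 2.3.3 and numpy 2.4.6, and were tested on simulated data. Alternatives were a D stretch of at least 8 bases, 1 inserted base allowed, no P base, entries of 1 count, of lower quality or with tied V left out, near-identical entries joined, clone counts summed, TMM, no segment filter, weighting to length or segments, the replicate block, and each library left out; removal of the largest germline-like entry, encodings per entry and the alternatives for trimming and P bases were added after seeing the data. Named segments were those called (at most the 12 with the largest ratio per test), the 5 most used and the TRBV13, TRBV12, TRBJ and TRBD lists. Calls outside that number, such as TRBV29, and TRBV2 and TRBJ2-3 between genotypes were named after their values were seen. Named sequences were the 3 largest germline-like entries per library and the 5 germline-like amino acid CDR3s with the most encodings. Also named were the 5 with the largest summed share of counts among those listed in every library. Those printed were chosen among all of these. The members and lists were chosen with earlier results of these data known.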

Additional observations from a re-analysis of the deposited data

Results flagged for a closer look

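Of 33 properties and 35 segments compared between germline-like and other entries, 2 differed in opposite directions in the genotypes, with both libraries of each genotype on one side. The first is the share of TRBD2 entries with at least 8 D bases that carry a TRBJ1 segment, an order of segments that a plain deletional D-J joining does not give. It was 1.45% and 1.51% among germline-like and 1.54% and 1.62% among other entries in the wild-type libraries, and 2.19% and 2.36% against 1.57% and 1.53% in the Vsig4-deficient libraries. The difference between the classes was thus 0.822 percentage points higher in the Vsig4-deficient libraries (p = 0.333, exact permutation test, the smallest p that 2 against 2 libraries allow). Without the limit of 8 D bases both genotypes went the same way: the share was 5.63%, 6.72%, 6.80% and 6.81% among germline-like and 4.37%, 4.47%, 4.10% and 4.41% among other entries.

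The second is TRBV30, a rare segment. It made up 0.2001% and 0.171% of germline-like and 0.179% and 0.104% of other entries in the wild-type libraries, and 0.0759% and 0.0881% against 0.141% and 0.0944% in the Vsig4-deficient libraries. The difference between the classes was lower in the Vsig4-deficient libraries (-0.0793 percentage points), and whether that difference changed with genotype was not tested. The germline-like values rest on 11, 14, 4 and 7 entries. Among germline-like entries alone TRBV30 was not called between the genotypes (log2 ratio -1.12, adjusted p = 0.526, edgeR quasi-likelihood test).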

How the results depend on the processing

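Of 321 values recomputed under alternatives, 12 changed sign; the exact tests could not pass 0.05 under any of them. The genotype difference in the share of entries (-0.109 points) was 0.394 with D stretches of at least 8 bases and 0.206 without entries of 1 count, and -0.388 to 0.169 with each library left out, the highest without wild-type replicate 1. The difference in the share of counts was 4.48 points with 1 inserted base allowed, and -3.63 to -1.47 with each library left out. V segments called between the classes numbered 8 with DESeq2, 0 with clone counts summed and 6 to 12 with each library left out (7 without wild-type replicate 1, 6 without Vsig4-deficient replicate 2). J segments called numbered 3 with DESeq2, 1 without entries of 1 count, 0 with clone counts summed and 1 to 6 with each library left out (1 without wild-type replicate 2 or Vsig4-deficient replicate 2). Between genotypes 1 J segment was called with clone counts summed. With clone counts summed, log2 ratios turned for TRBV1 (-0.17), TRBV16 (-0.14), TRBV20 (-0.049), TRBV29 (-0.41), TRBV3 (0.049), TRBV5 (-0.045), TRBJ1-2 (-0.046) and TRBJ1-6 (-0.43). The cause was not tested. The replicate numbers are not stated to pair the samples, and deviations of same-numbered libraries had a correlation of 0.031. With the replicate number as a block the genotype difference was -0.109 points of entries (p = 1) and -2.55 points of counts (p = 0.5, exact permutation test), with 0 V and 0 J segments called. With 2 libraries per genotype and 4 in all, no exact test could reach 0.05. A rare clonotype missed in a shallower library counts as not shared.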
